A study of Mus musculus with 8 samples.

Results

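The genes described are 46 genes of DNA replication and of the G1/S transition, out of 23420 gene symbols for which reads were counted. These genes were chosen by name, with earlier results of these data known. They were grouped by what their proteins do into 8 roles: origin recognition and licensing, the MCM helicase, helicase activation, the polymerases with their clamp and clamp loader, single-strand binding, nucleotide supply, histone supply and chromatin assembly, and G1/S control. All 46 were among the 19424 genes tested and among the 15191 of these that passed filterByExpr, edgeR's filter on low counts. RNA-seq was performed on mouse embryonic stem cells (mESCs) of the mixed 129 x C57BL/6 background, which were derived from blastocysts and cultured with the cytokine LIF and without feeder cells. IPO13+/+ cells carry the gene for Importin-13, a carrier of proteins through the nuclear pore, and IPO13-/- cells are its knockout. Each genotype was sequenced untreated and after oxidative stress, in which cells were exposed to 125 µM H2O2 for 1 h and left for 2 h to recover. Each of the 4 groups holds 2 libraries. The labels do not say whether these came from separate cultures or how many lines of each genotype were used, so p-values measure only the spread between libraries, which may be technical.

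A cell prepares to copy its DNA in G1, when the origin recognition complex, Cdc6 and Cdt1 load the ring-shaped MCM helicase onto chromatin, and geminin, the product of Gmnn, blocks Cdt1 once S phase has begun. Cyclin D and cyclin E kinases inactivate the retinoblastoma protein and release E2F transcription factors, which switch on many of the replication genes themselves. Embryonic stem cells are known for a short G1 phase and a high share of cells in S phase.

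Between 60397877 and 73789079 reads were counted on genes in each library, and the 46 genes together took between 0.816% and 0.857% of them. Ipo13 lay between 68.3 and 72.4 CPM in the 4 IPO13+/+ libraries and between 24.9 and 26.0 CPM in the 4 IPO13-/- libraries, where CPM is the count scaled to a common library total corrected by TMM factors. The labels do not say which part of the gene is missing, so the reads left on Ipo13 cannot be read as protein. The 8 pluripotent stem cell markers summed to between 6676 and 6946 CPM in IPO13+/+ and between 5693 and 5931 CPM in IPO13-/- libraries, none of them at 0, and the part of that difference in the genotype comparison was not tested. The 8 did not all differ alike. Between untreated genotypes 5 were lower in IPO13-/- cells and 2 higher at an FDR below 0.05, or 62.5% and 25%. Of genes past filterByExpr 24.7% were lower and 23.6% higher. No list of 6 markers of primitive endoderm, trophectoderm, fibroblasts or early mesoderm and neural cells summed to more than 25.9 CPM, with at most 2 of the 6 at 0. Set against IPO13+/+ cells, the 1130 chromosome 2 genes of IPO13-/- cells had a median log2 difference of 0.27 without and 0.29 with stress, and the 563 genes of chromosome X one of 0.12 and 0.14, whereas the medians of the other chromosomes lay between -0.07 and 0.02. These values stand beside the genotype comparison of the genes on those chromosomes.

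The replication genes were expressed at levels that differed widely between roles. Levels were compared between genes only per kb of transcript, as the mean of the untreated IPO13+/+ libraries. The 6 MCM genes, whose products make up 1 ring, lay between 108 CPM per kb for Mcm4 and 185 CPM per kb for Mcm3, a range of 1.71 times, and the 3 RPA genes had a range of 1.59 times. Genes of other complexes lay further apart. Helicase activation had a range of 8.62 times, from 6.78 for Gins3 to 58.4 for Gins4, both of the GINS complex. The polymerase group had a range of 22.7 times. Pcna, the sliding clamp that holds polymerases on DNA, had the highest level of the 46 at 303 CPM per kb. G1/S control was the most uneven group, with a range of 175 times. Within this group Ccnd3 stood at 200.4, Ccne1 at 112 and Ccnd1 at 70.95 CPM per kb, whereas E2f2 stood at 3.53 and Ccnd2 at 1.15. Ccnd2 also gave the fewest reads of the 46, with between 271 and 512 counts in each library.

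**Figure D1:**
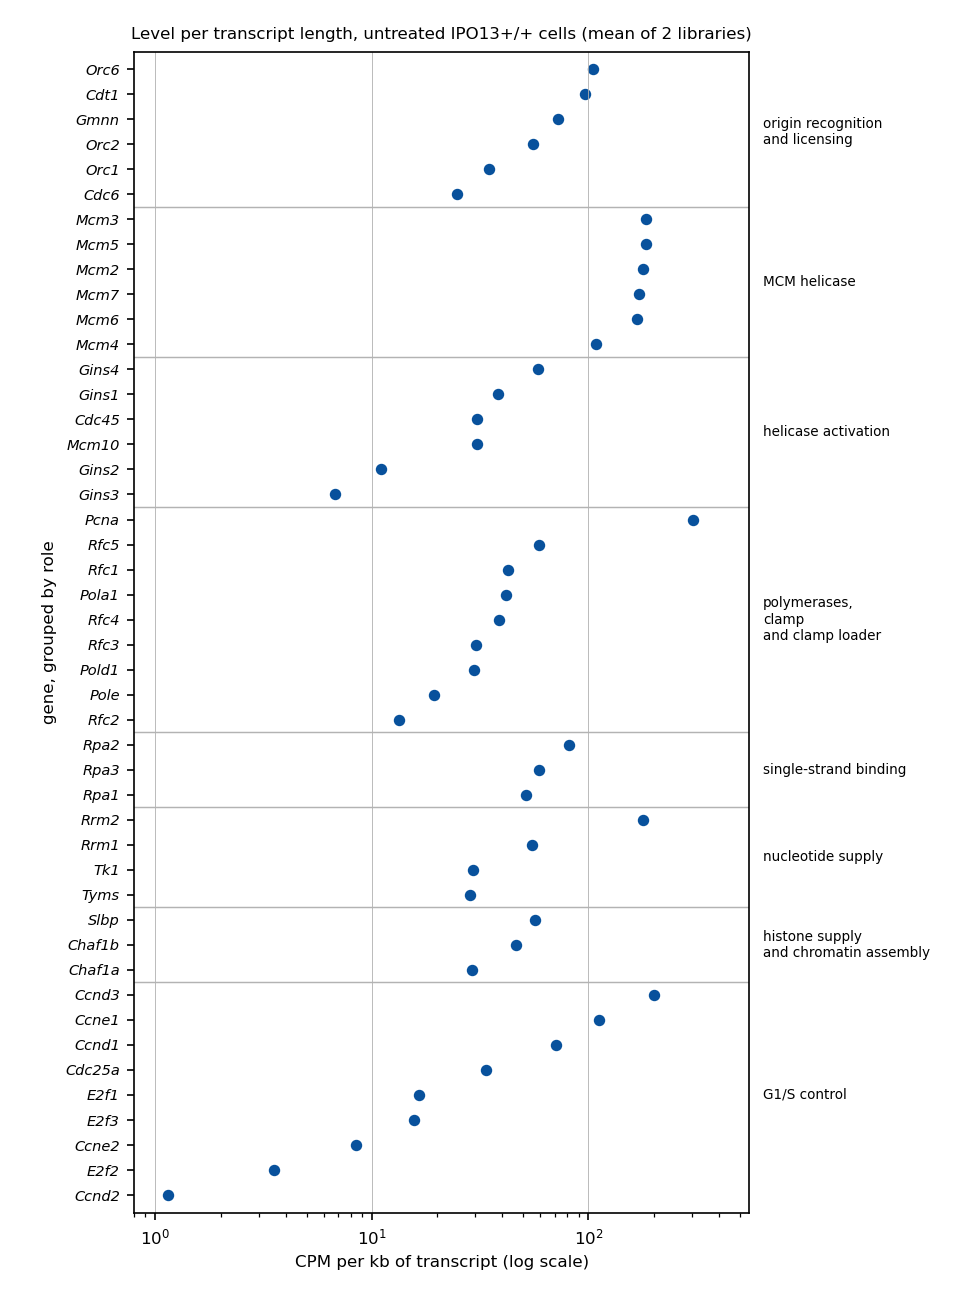
Each point is the level of 1 gene in untreated IPO13+/+ cells, in CPM per kb of transcript on a log axis, as the mean of 2 libraries, with genes grouped by role. The 6 MCM genes lie close together between 108 and 185, and G1/S control spreads from 1.15 for Ccnd2 to 200.4 for Ccnd3.

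Promoter sequences were examined because E2F factors bind a short known word in the promoters of many replication genes. RefSeq start sites on GRCm38.p6 with 250 bases before and 50 bases after them were available for 36 of the 46 genes, and were searched on both strands for TTTCCCGC, TTTGGCGC and TTTCGCGC. A perfect match was found for 14 of the 36 genes, or 38.9%, against 573 of all 27025 genes with such a window, or 2.12%, and 455 of the 16375 that the count files also hold, or 2.78%. Of the MCM genes with a window 4 of 5 held a match, of the licensing genes 3 of 5, of G1/S control 3 of 6, and of the polymerase group 3 of 7. No match was present for nucleotide supply, single-strand binding, or histone supply and chromatin assembly. The 4 genes with a match and the largest mean change after stress are shown to place the word among its neighbours, on the strand of the gene and with the word, or its reverse complement, in capitals. The match lies 11 bases before the start of E2f3 (chr13:29986056-29986085, minus strand), 41 bases before that of Gins3 (chr8:95633507-95633536, plus strand), 39 bases after a start of E2f2 (chr4:136172302-136172323, plus strand, at the end of its window) and 138 bases before that of Pola1 (chrX:93632275-93632304, minus strand).
E2f3: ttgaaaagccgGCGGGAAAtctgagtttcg
Gins3: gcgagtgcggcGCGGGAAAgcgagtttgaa
E2f2: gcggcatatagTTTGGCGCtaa
Pola1: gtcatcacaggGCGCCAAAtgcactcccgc
Gins3, which rose after stress in both genotypes, and E2f3, which was called lower in IPO13-/- cells, held TTTCCCGC on the opposite strand. E2f2 and Pola1, which fell in both genotypes, held TTTGGCGC, Pola1 on the opposite strand. A match is a description of letters and not evidence of binding, and its part in any change below was not tested.

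The first question was how the genes responded to H2O2 in IPO13+/+ cells. Among the cyclins, Ccnd1, Ccnd2, Ccnd3 and Ccne1 fell. So did E2f2, Gmnn, Pola1, Cdc45 and Gins1, and only Gins3 and Rrm2 rose. In all, 2 of the 46 genes, or 4.35%, were called higher at an FDR below 0.05 and 9, or 19.6%, lower. Over all tested genes 11.5% were called higher and 13.8% lower, and among genes that passed filterByExpr 14.4% and 17.6%. The share of members called lower was thus near that among genes past filterByExpr. No member changed 2-fold, as 2.90% of all tested genes did at that FDR. Over the 46 genes the median was -0.07 on the log2 scale, against -0.00109 over all tested genes and -0.03 over those past filterByExpr. With library totals the 46 genes had a median of -0.03, against 0.01 over genes past filterByExpr. In bulk samples, fewer cells in a phase of the cell cycle and less RNA per cell cannot be told apart.

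The D-type cyclins, which drive Cdk4 and Cdk6 in G1, all fell. Ccnd1 stood at 268 and 262 CPM in untreated and at 204 and 205 CPM in stressed IPO13+/+ cells. Ccnd2 went from 7.21 and 7.31 CPM to 5.78 and 4.98 CPM. Ccnd3, the most abundant of the 3 per kb, went from 422 and 425 CPM to 371 and 356 CPM. In each case both stressed libraries lay below both untreated ones. The log2 fold changes were -0.38 ± 0.04 (SE, FDR 2.08e-08) for Ccnd1, -0.43 ± 0.08 (FDR 0.000269) for Ccnd2 and -0.22 ± 0.04 (FDR 5.35e-05) for Ccnd3.

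Ccne1 encodes the cyclin that drives Cdk2 into S phase. It stood at 220.2 and 228 CPM without and at 183 and 177 CPM with stress, a fall by 19.6% (log2 fold change -0.31 ± 0.04, FDR 7.2e-07). Its relative Ccne2 lay between 24.5 and 26.4 CPM in all 4 libraries, overlapped between the groups and was not called. The E2F factors differed among themselves. E2f2, an activator, went from 16.5 and 16.9 CPM to 14.5 and 14.2 CPM, with no overlap (log2 fold change -0.22 ± 0.06, FDR 0.00742), whereas E2f1 and E2f3 were not called. Gmnn fell from 81.5 and 82.0 CPM to 67.2 and 68.7 CPM (log2 fold change -0.27 ± 0.04, FDR 3.47e-05), and it was the only called gene of its role. In G1/S control 5 of 9 genes, or 55.6%, were called lower and none higher, against 17.6% and 14.4% of genes past filterByExpr. The median of this role was -0.22 on the log2 scale, or -0.18 with library totals in place of TMM factors. Outside this role 4 of 37 were called lower and 2 higher, or 10.8% and 5.41%.

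**Figure D2:**
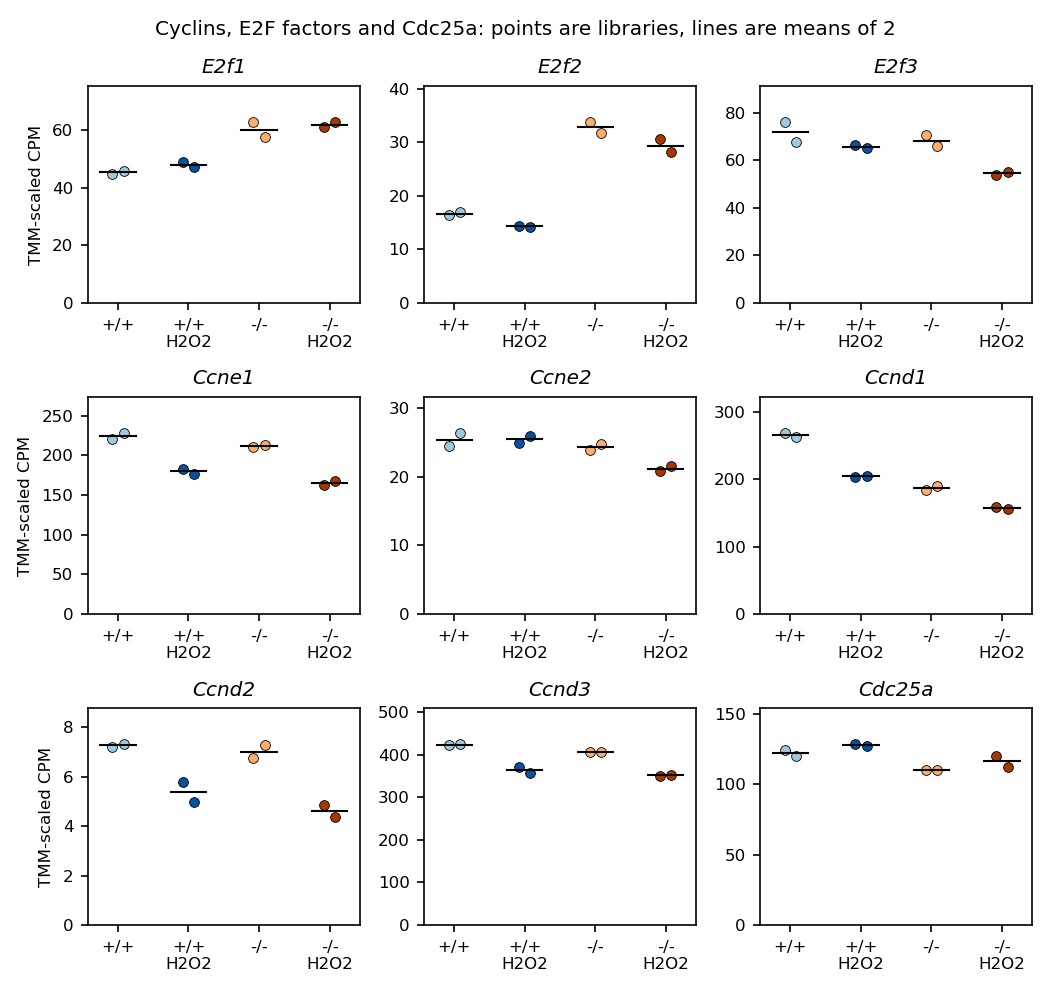
Each panel shows 1 gene of G1/S control, with TMM-scaled CPM on an axis that starts at 0, points for the libraries and a line for the mean of 2 in each of the 4 groups. Ccnd1, Ccnd2, Ccnd3 and Ccne1 are lower with H2O2 in both genotypes, Ccne2 and E2f3 are called lower in IPO13-/- cells, with no call of the difference between genotypes, and E2f2 is near 30 CPM in IPO13-/- against near 15 CPM in IPO13+/+ libraries.

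The genes of the replication machinery moved little in IPO13+/+ cells. None of the 6 MCM genes was called, and the largest absolute log2 fold change among them was 0.07. Neither was any gene of single-strand binding, which comprises the 3 subunits of RPA, nor any of histone supply and chromatin assembly. Among the genes that turn the loaded ring into a working helicase, Cdc45 (log2 fold change -0.18, FDR 0.00289) and Gins1 (-0.18, FDR 0.00485) fell. Gins3, another subunit of the same GINS complex, rose from 16.9 and 17.2 CPM to 19.7 and 19.8 CPM (0.21 ± 0.06, FDR 0.00544). Pola1, the catalytic subunit of the polymerase that makes primers, fell (-0.20 ± 0.04, FDR 0.000536), the only called gene of the 9 in its role. Rrm2, the small subunit of ribonucleotide reductase, rose from 394 and 388 CPM to 421 and 428 CPM (0.12 ± 0.04, FDR 0.0189). The calls of Gins3 and Rrm2 were both lost without either stressed IPO13+/+ library, which left 0 genes called higher, and without untreated IPO13+/+ library 1 the number called lower was 14. Without stressed IPO13+/+ library 2 the call of E2f2 was lost as well.

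In IPO13-/- cells, where the same exposure was tested, the cyclins fell as well, and some genes of the machinery rose. Of the 46 genes 9 were called higher and 12 lower, or 19.6% and 26.1%. Over all tested genes 14.9% and 14.4% were called, and among those past filterByExpr 18.9% and 18.4%. The share of members called higher was thus near that among genes past filterByExpr. No member changed 2-fold, as 2.89% of all tested genes did. The median over the 46 genes was 0.00, against -0.01 over genes past filterByExpr. With library totals these medians were -0.03 and -0.04, where IPO13+/+ cells had -0.03 and 0.01. Both genes called higher in IPO13+/+ cells, Gins3 and Rrm2, were called higher here too, and 8 of the 9 called lower there were also lower here (Gmnn, Cdc45, Pola1, E2f2, Ccne1, Ccnd1, Ccnd2 and Ccnd3), which makes 8 of the 12 called lower in IPO13-/- cells.

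In G1/S control 7 of 9 genes, or 77.8%, were called lower in IPO13-/- cells and none higher, with a median of -0.21. Of genes past filterByExpr 18.4% were called lower and 18.9% higher. Ccnd2 went from 6.73 and 7.28 CPM to 4.87 and 4.38 CPM, the largest fall of the 46 (log2 fold change -0.60 ± 0.09, FDR 5.82e-06). Ccne1 went from 211 and 214 CPM to 163 and 168 CPM (-0.36 ± 0.04, FDR 4.77e-08). E2f3, the third activating E2F, went from 70.6 and 66.1 CPM to 54.1 and 55.1 CPM (-0.33 ± 0.05, FDR 1.64e-05). All of these groups stood apart without overlap. Ccnd1 (-0.25 ± 0.04, FDR 2.02e-05), Ccnd3 (-0.21 ± 0.04, FDR 9.74e-05) and Ccne2 (-0.20, FDR 0.00644) fell less, and E2f2 was called lower as well. Cdc25a, the phosphatase that activates Cdk2, was not called in either genotype, and neither was E2f1.

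The largest rise in IPO13-/- cells was smaller than the falls of Ccnd2, Ccne1, E2f3 and Ccnd1. Chaf1b, a subunit of the complex that deposits histones on new DNA, stood at 82.4 and 88.0 CPM without and at 100.6 and 97.8 CPM with stress (log2 fold change 0.22 ± 0.04, FDR 0.000281), whereas it lay between 88.4 and 89.9 CPM in all 4 IPO13+/+ libraries. Of the 6 MCM genes 3, or 50%, were called higher, against 18.9% of genes past filterByExpr. They were Mcm3 (0.15 ± 0.04, FDR 0.00296), Mcm7 (0.13 ± 0.04, FDR 0.00745) and Mcm5 (0.10, FDR 0.0308). Mcm3 went from 501 and 517 CPM to 570.3 and 560 CPM, with no overlap. Tyms, which makes thymidylate, rose as well (0.16 ± 0.05, FDR 0.00982), as did Gins3 (0.17 ± 0.06, FDR 0.0169), Rrm2, Pcna and Cdt1. Mcm10, Cdc45, Pola1 and Slbp, whose protein binds the ends of histone mRNAs, were the called falls outside G1/S control beside Gmnn.

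The number of calls depended on single libraries and on the scaling, whereas Chaf1b was called under all 12 alternatives, with log2 fold changes between 0.18 and 0.29. Without untreated IPO13-/- library 1, 1 gene was called higher and none of the MCM genes, without stressed library 1 there were 5 and without stressed library 2 there were 3. The call of Tyms was lost without either untreated library and without stressed library 2, and that of Mcm3 without untreated library 1. The fold changes stayed near those above, at 0.19, 0.16 and 0.14 for Tyms and 0.13 for Mcm3. The number called lower was 7 without either untreated library or without stressed library 2. With library totals in place of TMM factors 4 were called higher and 14 lower, and of the MCM genes Mcm3 and Mcm7 were then called higher and Mcm6 lower.

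**Figure D3:**
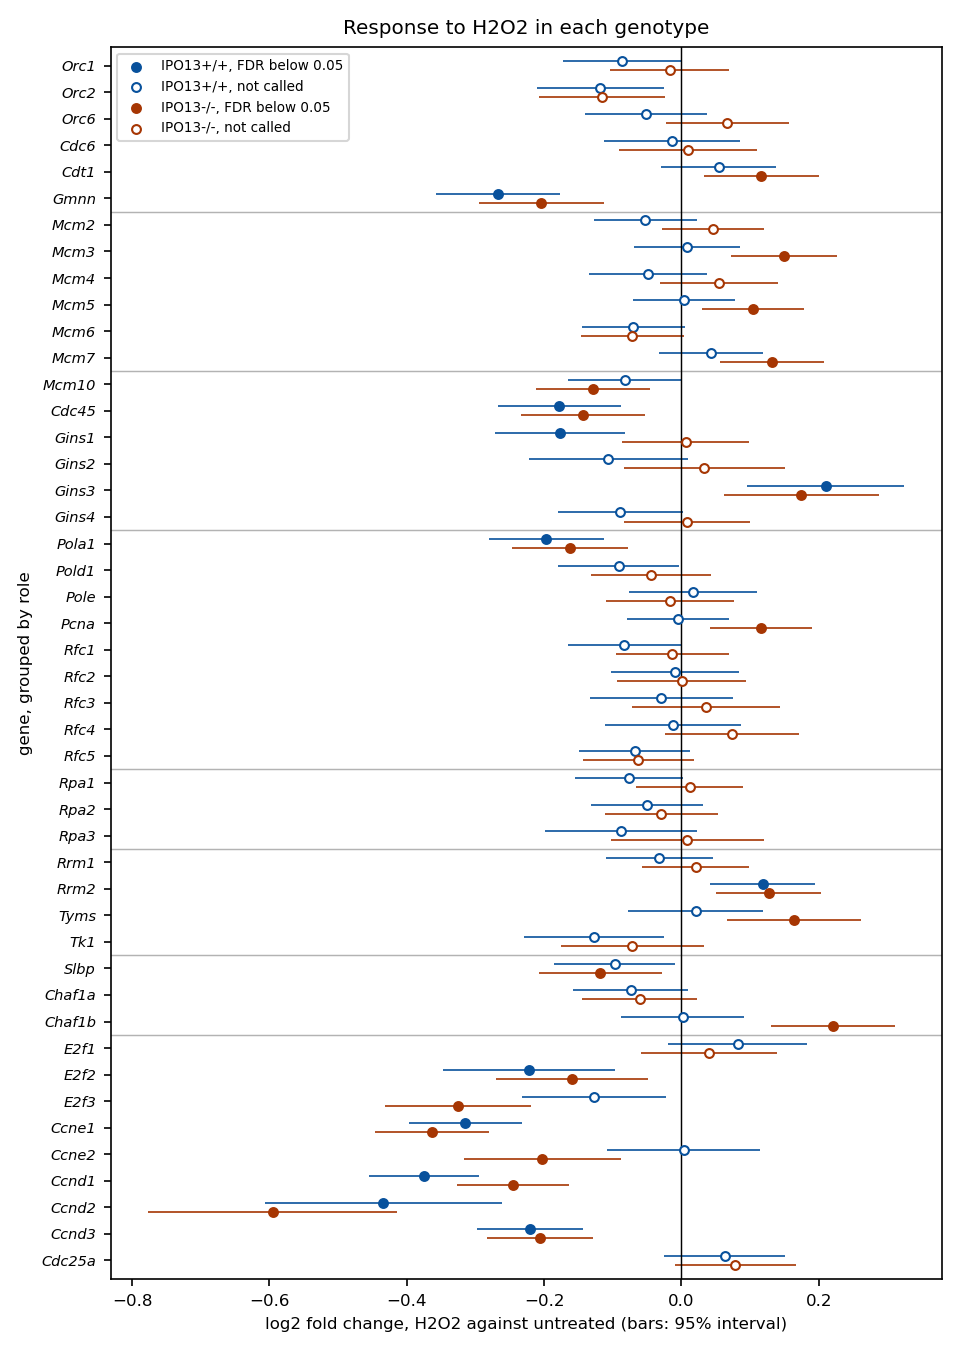
For each of the 46 genes, grouped by role, the points give the log2 fold change with H2O2 in IPO13+/+ (blue) and IPO13-/- cells (brown) and the bars its 95% interval, with filled points at an FDR below 0.05. The called falls are largest in G1/S control at the bottom, down to -0.60 for Ccnd2 in IPO13-/- cells, and most other genes lie within 0.2 of 0.

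The response of each gene was then compared between the genotypes by the interaction. No member was called by edgeR's quasi-likelihood test, where 2.01% of all tested genes had a more positive response in IPO13-/- cells at an FDR below 0.05 and 0.705% a more negative one. At an unadjusted p under 0.05 there were 8 members, and limma-voom and DESeq2 also called 0, with 9 and 6 at an unadjusted p under 0.05. Members named here were chosen after their values were seen. The lowest FDR was that of Chaf1b (log2 difference 0.22, 95% interval 0.09 to 0.35, FDR 0.0546). E2f3 (-0.20, interval -0.35 to -0.05, FDR 0.159) and Ccne2 (-0.21, interval -0.37 to -0.05, FDR 0.176) lay in the other direction. For Ccnd3 the difference was 0.01 with an interval of -0.09 to 0.12, and for Ccne1 it was -0.05 with an interval of -0.17 to 0.07. A test that misses its threshold does not show that the responses were alike. Without untreated IPO13+/+ library 1, Gins2, Tyms and Chaf1b were called more positive and E2f3 more negative, and without library 2 Mcm3 and Chaf1b were called. With library totals E2f3 and Ccne2 were called more negative. Across the 46 genes the responses in the 2 genotypes, which share no library, correlated with Pearson's r = 0.83 and Spearman's rho = 0.81, and with 0.80 and 0.80 over the 37 genes outside G1/S control. These values are across genes, which share libraries and depth and are not independent replicates.

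Next, untreated IPO13-/- and IPO13+/+ cells were compared. E2f2 differed most of the 46 genes and E2f1 was higher too, whereas Ccnd1 and 4 of the 6 licensing genes were lower. Of the 46 genes 7 were called higher and 11 lower, where 18.7% and 19.4% of all tested genes and 23.6% and 24.7% of those past filterByExpr were called. No member differed 2-fold, as 4.71% of all tested genes did. In stressed cells 10 were called higher and 11 lower, against 19.1% and 17.5% of all tested genes and 24.3% and 22.2% of those past filterByExpr, and 1 member, E2f2, passed 2-fold, where 4.56% of all tested genes did. The shares of members were therefore near those over all genes in both comparisons. All 7 genes called higher without stress were also called higher with it (Gins1, Pcna, Rfc4, Rpa1, Rrm1, E2f1 and E2f2), and 8 of 11 called lower were shared (Orc6, Cdc6, Cdt1, Pola1, Rfc3, Slbp, Ccnd1 and Cdc25a).

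E2f2 stood at 16.5 and 16.9 CPM in untreated IPO13+/+ cells and at 33.8 and 31.8 CPM in untreated IPO13-/- cells. With stress it stood at 14.5 and 14.2 CPM against 30.7 and 28.1 CPM. The lowest IPO13-/- library was thus far above the highest IPO13+/+ library. The log2 fold changes were 0.97 ± 0.06 (FDR 1.19e-13) and 1.04 ± 0.06 (FDR 7.47e-14). E2f2 lies on chromosome 4 (136172394 to 136196057, plus strand, GRCm38), where the median of all genes was -0.04 without and -0.01 with stress, and the 56 tested genes within 2 Mb of it had the same medians.

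Ccnd1 stood at 268 and 262 CPM in untreated IPO13+/+ and at 184 and 190 CPM in untreated IPO13-/- cells. It was thus lower by a log2 fold change of -0.51 ± 0.04 (FDR 4.5e-11), a larger difference than the fall with stress in either genotype. With stress, both groups were lower and the difference was -0.38 ± 0.04 (FDR 1.45e-08), from 204 and 205 CPM to 159 and 156 CPM. Stressed IPO13-/- cells therefore had the lowest Ccnd1 of the 4 groups, and no group overlapped another. Ccnd2 and Ccnd3 were not called between the genotypes.

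Chromosome 2 holds 4 of the 46 genes, and 3 of these were among the genes higher in IPO13-/- cells. E2f1 stood at 44.7 and 45.9 CPM against 62.7 and 57.4 CPM without stress, a log2 fold change of 0.41 ± 0.05 (FDR 1.31e-07). Pcna stood at 454 and 465 CPM against 536 and 539 CPM (0.23 ± 0.04, FDR 1.27e-05). Gins1 stood at 41.5 and 41.6 CPM against 48.8 and 48.5 CPM (0.23 ± 0.05, FDR 0.000197). None of these groups overlapped. With stress the differences were 0.37 ± 0.05 for E2f1 (FDR 8.03e-07), 0.35 ± 0.04 for Pcna (FDR 1.4e-08) and 0.41 ± 0.05 for Gins1 (FDR 4.35e-08). Relative to the chromosome's own median, the differences became 0.14 and 0.07 for E2f1, -0.04 and 0.05 for Pcna and -0.04 and 0.12 for Gins1, without and with stress. Mcm10, the other gene there, was at 0.06 and 0.02 and so lay below that median by 0.21 and 0.28 on the log2 scale. The part of the chromosome in these calls was not tested. Pola1 is the only member on chromosome X and was lower in IPO13-/- cells, by -0.25 without stress (FDR 1.47e-05) and -0.22 with it (FDR 0.000112), against medians of 0.12 and 0.14 for that chromosome.

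**Figure D4:**
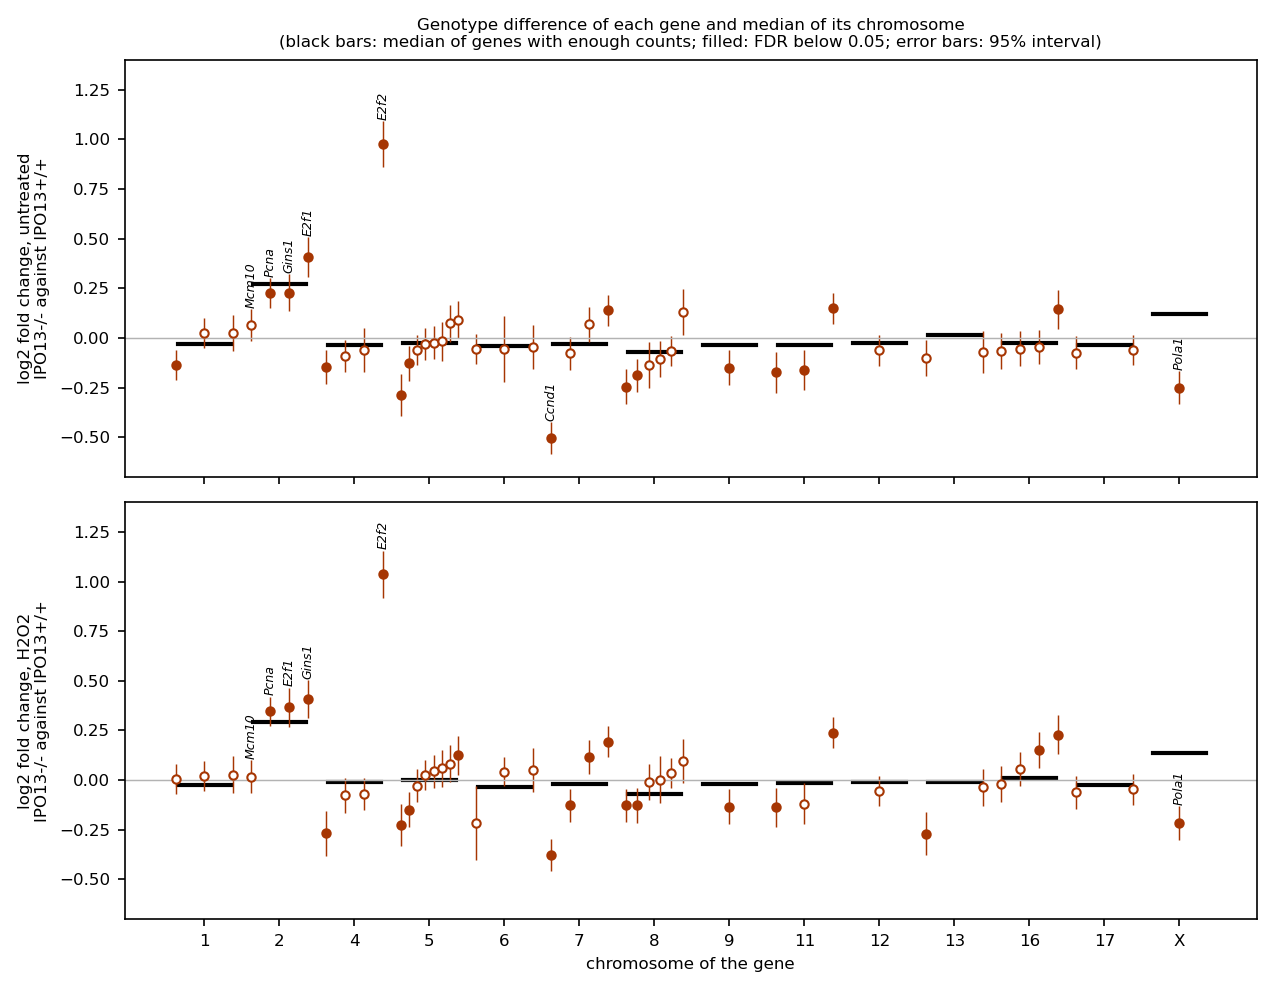
Points give the log2 fold change of IPO13-/- against IPO13+/+ cells of each gene with its 95% interval, untreated above and with H2O2 below, placed by chromosome, filled at an FDR below 0.05, with black bars for the median of all genes on that chromosome. On chromosome 2 the bar lies at 0.27 and 0.29. It is inside the intervals of Pcna in both panels, of Gins1 untreated and of E2f1 with H2O2. It is below those of E2f1 untreated and of Gins1 with H2O2, and above those of Mcm10. E2f2 at 0.97 and 1.04 stands far from the bar of chromosome 4.

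Of the 6 licensing genes 4, or 66.7%, were called lower in untreated IPO13-/- cells, against 24.7% of genes past filterByExpr. Orc2 (0.02, FDR 0.728) and Gmnn (-0.10, FDR 0.075) were not called. Orc6, a subunit of the origin recognition complex, stood at 130 and 139 CPM against 114 and 113 CPM (log2 fold change -0.25 ± 0.04, FDR 4.65e-05). Cdt1 stood at 217 and 203 CPM against 183 and 185 CPM (-0.19 ± 0.04, FDR 0.000472). Both were apart without overlap, and Orc1 and Cdc6 were the other 2 called lower. With library totals only Orc6 and Cdt1 of the 6 were called. With stress 3 of the 6, or 50%, were called lower, Orc6, Cdc6 and Cdt1, against 22.2% of genes past filterByExpr. Rfc3, a subunit of the loader that opens the clamp, was lower by -0.29 ± 0.05 without stress (FDR 4.81e-05) and -0.22 ± 0.05 with it (FDR 0.000975), whereas Rfc4 of the same complex was higher by 0.14 (FDR 0.018) and 0.23 (FDR 0.000345). Rpa1, the large subunit of RPA, was higher by 0.15 ± 0.04 (FDR 0.00236) and 0.24 ± 0.04 (FDR 1.25e-05). Rrm1, the large subunit of ribonucleotide reductase, was higher too, by 0.14 (FDR 0.00439) and 0.19 (FDR 0.000184). In the stressed comparison E2f3 (-0.27 ± 0.05, FDR 0.000132) and Ccne2 (-0.27 ± 0.06, FDR 0.000318) were lower, and neither was called without stress. The MCM genes hardly differed, with 1 call without stress, Mcm3 (-0.14, FDR 0.0044), and 0 with it.

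The split between higher and lower depended on the scaling in untreated cells. With library totals 13 genes were called higher and 5 lower, in place of 7 and 11, which includes the licensing genes given above. The median of the MCM genes then turned from -0.06 to 0.02, while that of genes past filterByExpr moved from -0.01 to 0.07. Without untreated IPO13-/- library 1, 5 genes were called lower, and in the stressed comparison the number called lower was 6 without stressed IPO13+/+ library 1 and 7 without library 2 or without stressed IPO13-/- library 2.

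In the TMM-scaled fit of all 8 libraries 13 of the 46 genes were called in none of the 4 comparisons: Orc2, Mcm2, Mcm4, Mcm6, Gins2, Gins4, Pole, Rfc1, Rfc2, Rfc5, Rpa2, Rpa3 and Chaf1a. Their largest absolute log2 fold change in any of these comparisons was 0.14, for Gins2. The median coefficient of variation of the 46 genes between the 2 libraries of a group lay between 1.27% and 2.14%. The genotype differences correlated across the 46 genes between untreated and stressed cells, which share no library, with r = 0.92 and rho = 0.84, and without E2f2 with 0.85 and 0.82.

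**Figure D5:**
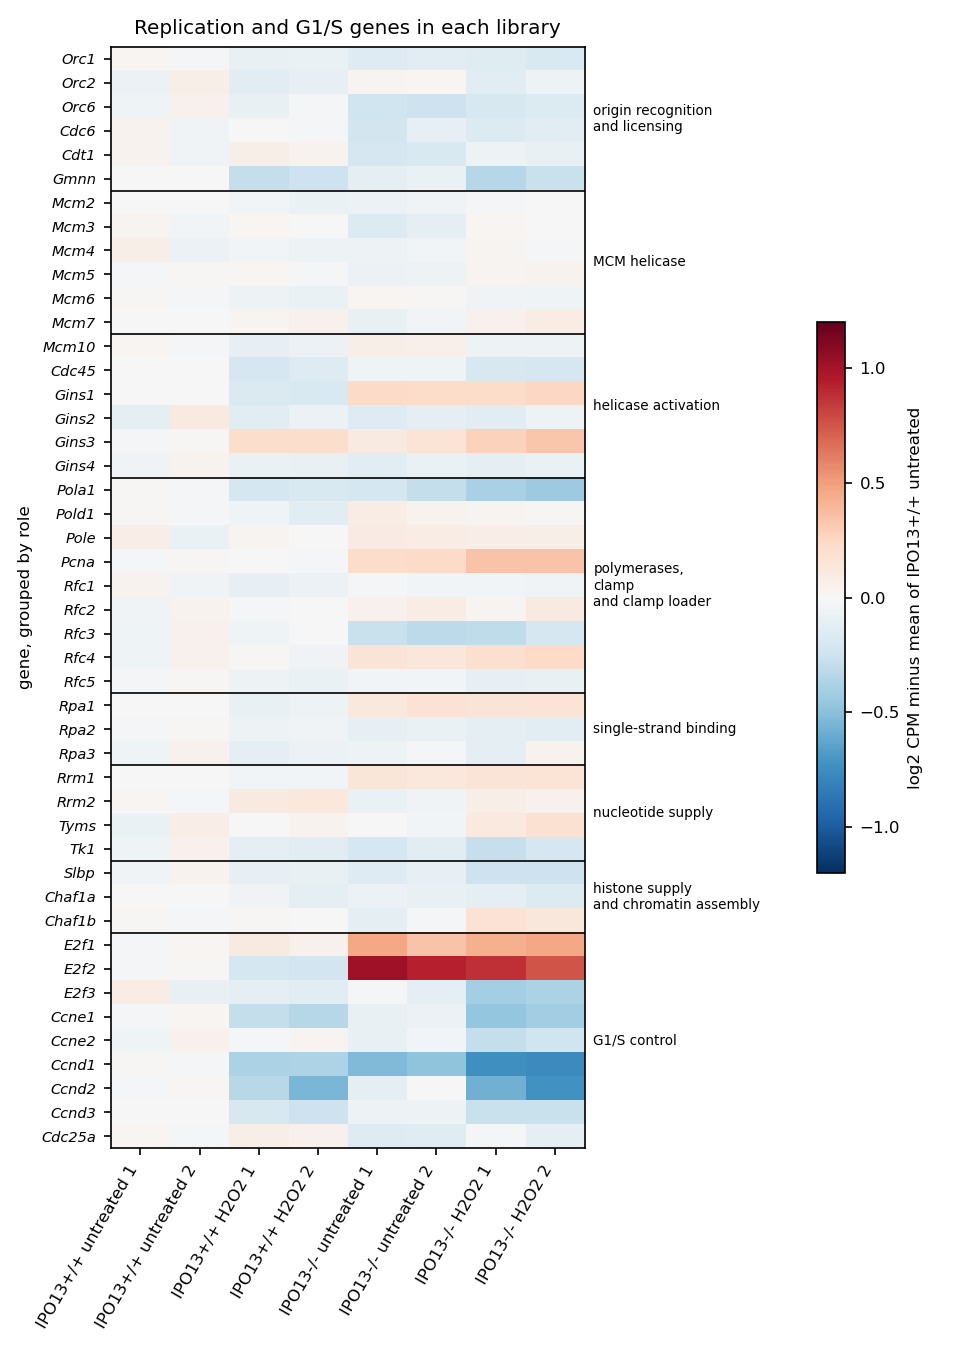
Rows are the 46 genes by role and columns the 8 libraries, coloured by log2 CPM minus the mean of the untreated IPO13+/+ libraries. E2f2 and E2f1 are high in all 4 IPO13-/- libraries, Ccnd1 is lowest in the stressed IPO13-/- libraries, and the MCM rows stay near 0 throughout.

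Other genes of the pathway were examined from lists chosen by name. Of 28 other G1/S regulators 5 rose and 10 fell with stress in IPO13+/+ cells, and 6 rose and 9 fell in IPO13-/- cells. These are 17.9% and 35.7% of the list in IPO13+/+ and 21.4% and 32.1% in IPO13-/- cells. The shares that rose were near the 14.4% and 18.9% of genes past filterByExpr. Those that fell were above the 17.6% and 18.4% of genes past filterByExpr called lower. The inhibitors of the cycle moved in both directions. Cdkn1a, which encodes the Cdk inhibitor p21, stood at 45.2 and 45.01 CPM without and at 79.6 and 78.6 CPM with stress in IPO13+/+ cells (log2 fold change 0.81, FDR 1.95e-13). In IPO13-/- cells it started from 19.99 and 22.2 CPM and reached 52.1 and 52.00 CPM (1.31, FDR 3.76e-17). Its response was more positive in IPO13-/- cells (interaction 0.50 ± 0.07, FDR 7.13e-05). Its level there was below that of IPO13+/+ cells in the same condition, both without and with stress. Rb1, which encodes the retinoblastoma protein, rose by 1.11 (FDR 5.02e-14) and 1.03 (FDR 2.78e-13), and Cdkn2b, a Cdk4 and Cdk6 inhibitor, by 0.60 (FDR 0.000431) and 0.99 (FDR 6.97e-07). In the other direction Cdkn1b, which encodes the Cdk inhibitor p27, fell in IPO13+/+ (-0.23, FDR 0.00489) and IPO13-/- cells (-0.23, FDR 0.00461), and so did Rbl1, a relative of Rb1 (-0.21, FDR 0.00397 and -0.20, FDR 0.00616). These 2 genes were chosen after their values were seen. E2f8, a repressing E2F, fell by 0.39 on the log2 scale (FDR 7.48e-08) and by 0.44 (FDR 3.98e-09), and like E2f2 it was higher in untreated IPO13-/- cells (0.45, FDR 2.73e-09).

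Of 43 other replication genes 2 rose and 12 fell with stress in IPO13+/+ cells, or 4.65% and 27.9%, against 14.4% and 17.6% of genes past filterByExpr, and with library totals 8 fell. In IPO13-/- cells 0 rose and 15 fell, or 34.9%, against 18.4%, and there the genes with the largest falls were Rrm2b (-0.41, FDR 0.000132), a p53-regulated subunit of ribonucleotide reductase, and Asf1b (-0.36, FDR 4.65e-06), a histone chaperone. Between untreated genotypes 12 were higher and 5 lower in IPO13-/- cells, or 27.9% and 11.6%, where 23.6% and 24.7% of genes past filterByExpr were called. These shares are with TMM factors. With library totals 18 were higher and 2 lower, but the median of all genes past filterByExpr then also moved, from -0.01 to 0.07. The 2 highest of the 43 genes were Mcm8 (0.58, FDR 5.56e-10) and Dut (0.39, FDR 9.29e-08), both on chromosome 2. Dna2 came next, at a mean of 54.7 CPM in untreated IPO13+/+ and 69.8 CPM in untreated IPO13-/- cells.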

How the data were processed

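Reads were mapped by the authors to mm10, and per the labels bcl2fastq, STAR 2.3.1, HTSeq and limma were used. The authors deposited for each library the raw counts per gene symbol and CPM, the same counts scaled to the library total. Only the counts were tested, and the deposited CPM differed from recomputed values by at most 5e-04. Genes that had a count of 1 or more somewhere among the 8 libraries, 19424 in number, were fitted in R 4.3.3 with edgeR 4.0.16 (TMM factors, quasi-likelihood test, 1 coefficient per group). FDR is the Benjamini-Hochberg value over all tested genes. SE was taken from the F statistic, as the size of the change over its square root. The common dispersion corresponded to a biological coefficient of variation of 3.36%, and the procedure was tested on simulated data. Alternatives were limma 3.58.1 (voom), DESeq2 1.42.0, other scalings and filters, a replicate block, fits of only the libraries compared, and leaving out each library. Where that left a group with 1 library, it was assumed to vary like the other groups.

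Members and lists were chosen with earlier results of these data known. In each pairwise comparison the 5 called members with the largest change in each direction were described with SE and FDR, and of each other list at most 3 per direction were named. The other called members are named, some with fold change and FDR. The 4 promoters shown are those with a perfect E2F-type word and the largest absolute mean log2 fold change over both stress comparisons. Positions and lengths of transcripts are those of GENCODE M21 (GRCm38, the build of mm10), using APPRIS principal transcripts, and promoter windows from RefSeq on GRCm38.p6. With totals of at least 60397877 counts, 3 counts correspond to at most 0.0497 CPM, which covers counting error only.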

Additional observations from a re-analysis of the deposited data

How the results depend on the processing

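Of 37 log2 fold changes of the members with the largest called changes, 30 kept their direction and their call under all 12 alternatives, 7 lost the call under some and 0 reversed. The 7 were E2f2, Gins3 and Rrm2 after stress in IPO13+/+ cells and Gins3, Tyms, Mcm3 and Mcm7 in IPO13-/- cells. Over the fits that leave out 1 library, the number of members called higher and lower ranged from 0 to 2 and from 7 to 14 for stress in IPO13+/+ cells, from 1 to 6 and from 7 to 8 for stress in IPO13-/- cells, from 6 to 7 and from 5 to 12 for genotype without stress, from 7 to 9 and from 6 to 8 for genotype with stress, and from 0 to 3 and from 0 to 1 for the interaction. With library totals in place of TMM factors, 4 were higher for stress in IPO13-/- cells, 13 higher and 5 lower for genotype without stress, and 2 lower in the interaction. That scaling moved the median of all genes past filterByExpr by at most 0.08 (log2). With members set against the median of their own chromosome, the median genotype difference without stress moved from -0.06 to -0.04. The cause of these shifts was not tested.

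With the replicate block 1 member was called higher (Chaf1b) and 1 lower (E2f3) in the interaction, 2 and 13 for stress in IPO13+/+ cells, 9 and 13 in IPO13-/- cells, 9 and 15 for genotype without stress and 10 and 13 with it, which changed no other count by over 1.5 times. The labels give only numbers, and the deviations of libraries with the same number correlated between -0.06 and 0.54 over 10235 genes, so the numbers were not treated as pairs.

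With 2 libraries a group the smallest called change was 0.10 on the log2 scale (Mcm5), and an exact permutation test of 1 gene cannot go below p = 0.333. Chi-square per gene between the libraries of a group was largest in untreated IPO13+/+ cells, at 15.0, and smallest in stressed IPO13+/+ cells, at 2.27.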

Other observations

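The 17 mitotic genes, which act after S phase and were kept apart from the replication genes, were called in 1 direction with stress. In IPO13+/+ cells 13 were called lower and 0 higher, or 9 and 0 with library totals, with a median log2 fold change of -0.17, and in IPO13-/- cells 7 were lower and 0 higher, with a median of -0.11. These are 76.5% and 41.2% of the list, where 17.6% and 18.4% of genes past filterByExpr were called lower. The 3 largest falls in each genotype were those of Plk1, a mitotic kinase (-0.33, FDR 4e-07 and -0.27, FDR 5.14e-06), Mki67, which encodes the proliferation marker Ki-67 (-0.28, FDR 0.00173 and -0.31, FDR 0.00053), and Top2a, which untangles DNA (-0.26, FDR 2.98e-05 and -0.28, FDR 8.82e-06). Their summed level lay between 3998 and 4318 CPM in untreated and between 3596 and 3952 CPM in stressed libraries. Between untreated genotypes 8 were higher and 1 lower in IPO13-/- cells, or 47.1% and 5.88% against 23.6% and 24.7%, led by Cdc25b (0.45, FDR 1.19e-07), Aurka (0.37, FDR 2.1e-08) and Bub1 (0.35, FDR 4.48e-08), all on chromosome 2, where the median of all genes was 0.27.

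Myc and Mycn, transcription factors that promote entry into S phase, were lower in IPO13-/- cells. Myc differed by -0.61 without (FDR 6.43e-11) and by -0.66 with stress (FDR 2.01e-11), and Mycn by -0.33 with stress (FDR 3.25e-07). Mycn also fell with stress in IPO13-/- cells (-0.27, FDR 8.78e-06), while Myc was not called with stress in either genotype. The gene of the Cdk inhibitor p21, Cdkn1a, was lower in untreated IPO13-/- cells, at 19.99 and 22.2 CPM against 45.2 and 45.01 CPM (FDR 1.34e-15).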
